A study of Mus musculus with 18 samples.

Results

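Endothelial cells of lymphatic vessels (LEC) and of blood vessels (BEC) from mouse embryos at embryonic day 18.5 (E18.5), shortly before birth, were compared on 6 of the 18 arrays of the series. They were chosen by their labels, 3 arrays of LEC and 3 of BEC at that age. The other 12 arrays hold both cell types at E14.5 and E16.5 and are used here only to set the E18.5 difference beside the earlier ones. Per the labels the 3 arrays of a group are biological replicates, and per the design text each comes from a litter of its own, with LEC and BEC taken from matching litters. The labels name neither strain nor organ, and they give the isolation of the cells only by a citation that was not used here. No genotype or treatment is named for any group. All 19938 genes with a transcript cluster of their own on the Affymetrix Mouse Gene 1.0 ST array are described, each by its brightest cluster. Values are log2 expression values, so that a difference of 1 is a 2-fold difference, and differences are LEC minus BEC with the standard error of limma, a linear model that moderates each gene's spread by that of all genes. A gene is called where its adjusted p is under 0.05.

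Lymphatic vessels drain tissue fluid and carry leukocytes back to the blood, and their endothelium arises mainly from embryonic veins under the transcription factor Prox1. Signalling through the receptor Flt4 (VEGFR3) drives lymphatic growth, whereas blood vessels grow mainly through the related receptor Kdr, with Flt1 binding excess ligand. Near term, collecting lymphatics form valves, and blood capillaries take up fatty acids, glucose and other nutrients for the growing fetus.

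The 6 arrays correlated at 0.986 to 0.99 within a cell type and at 0.936 to 0.946 between the cell types. The median standard deviation of a gene over 3 arrays was 0.189 in LEC and 0.17 in BEC at E18.5, against 0.106 to 0.129 in the groups of the earlier ages. Markers of other cells also differed between the isolates. On average over each list, macrophage markers read 7.56 to 8.13 on the LEC arrays and 4.84 to 5.21 on the BEC arrays, mast cell markers 8.93 to 9.32 against 5.17 to 6.59, keratinocyte markers 6.64 to 7.16 against 5.47 to 5.93, and mural cell markers 5.29 to 5.51 against 7.05 to 7.17. Their part in the differences of other genes was not tested. In bulk RNA, a smaller number of cells of a type and less RNA per cell cannot be told apart.

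Of the 19938 genes, 3707 were called (18.6%), 1933 higher in LEC (9.7%) and 1774 lower (8.9%). Differences of at least 1 were found for 911 genes higher in LEC (4.57%) and 654 lower (3.28%). At a size of at least 2 the numbers were 311 and 182, and at least 4 were reached by 48 genes higher and 10 lower in LEC. Markers of other cells stood among the 48, such as Cd163 and F13a1 of the macrophage list and Ms4a2 of the mast cell list. The part of such cells in these counts was not tested. The LEC and BEC arrays did not overlap for 6966 genes (34.9%). The median difference over all genes was -0.04. A level of 4.77, the 95th percentile of the group means of 1190 olfactory and vomeronasal receptor genes, was taken as the bound under which a gene is dim. Of the 911 genes, 234 were dim in BEC, and of the 654, 72 were dim in LEC, so their differences may understate the change. With all 18 arrays in 1 fit, 6071 genes were called.

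**Figure D1:**
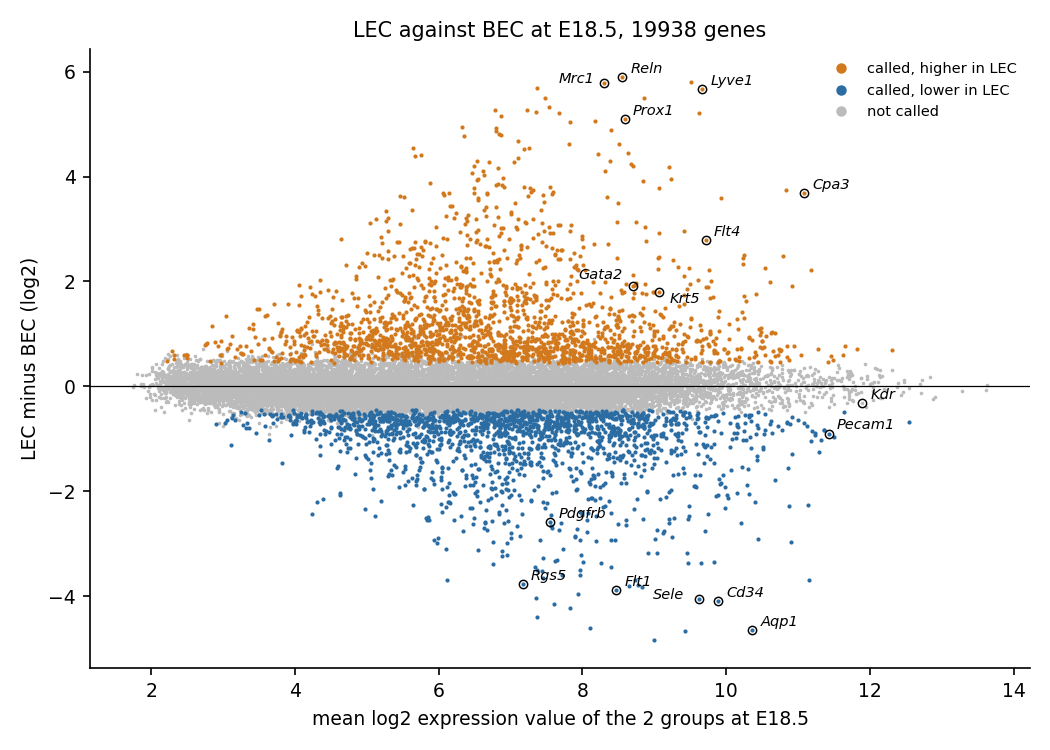
The difference LEC minus BEC at E18.5 (log2, vertical axis) is plotted against the mean log2 expression value of both groups (horizontal axis) for 19938 genes, with called genes in orange (higher in LEC) and blue (lower in LEC). Genes higher in LEC reach 5.89 (Reln), and genes lower in LEC reach -4.83 (Tmem255a), while Kdr at -0.32 was not called.

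Each of the 17 measured members of the lymphatic identity list read higher in LEC, with a median difference of 2.71 against -0.04 over all genes, and for all 17 the arrays did not overlap. Prox1, a homeodomain protein and the master regulator of lymphatic fate, read 6.28, 6.31 and 5.52 in BEC and 11.12, 11.20 and 11.07 in LEC, array values being given in the order of replicates 1 to 3 here and throughout. Its LEC arrays lay close together and far above every BEC array, a difference of 5.09 ± 0.20 (SE, limma adjusted p = 1.7e-08). Lyve1, a hyaluronan receptor of lymphatic capillaries, read 7.10, 6.77 and 6.62 in BEC and 12.36, 12.62 and 12.51 in LEC, again with a wide gap between the groups, and differed by 5.67 ± 0.17 (SE, limma adjusted p = 3e-09). Reln, which encodes the secreted glycoprotein reelin, read 5.89, 5.58 and 5.34 in BEC and 11.20, 11.69 and 11.60 in LEC and had the largest difference of all genes, 5.89 ± 0.19 (SE, limma adjusted p = 4.2e-09), a 59.3-fold higher level in LEC.

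Flt4, the receptor for the lymphatic growth factor VEGFC, read 8.19, 8.56 and 8.21 in BEC and 10.94, 11.07 and 11.31 in LEC and was higher in LEC by 2.79 ± 0.17 (SE, limma adjusted p = 2e-07). Pdpn, a membrane glycoprotein of lymphatic endothelium and of several epithelia and stromal cells, read 5.63, 5.33 and 5.97 in BEC and 9.40, 9.55 and 9.41 in LEC and was higher by 3.81 ± 0.18 (SE, limma adjusted p = 4e-08). Both genes were above the dim bound in BEC too. Gata2, the GATA factor named in the title of the series, read 8.02, 7.71 and 7.50 in BEC and 10.19, 9.12 and 9.68 in LEC and was higher by 1.92 ± 0.24 (SE, limma adjusted p = 9.1e-05), with a spread among the LEC arrays and no overlap with BEC. Gata2 is also a regulator of mast cells, whose markers were higher on the same LEC arrays, and the part of those cells in its difference was not tested. The smallest difference of the list belonged to Nr2f2, the vein and lymphatic factor COUP-TFII, at 0.68 ± 0.16 (SE, limma adjusted p = 0.0088). The others named here were Fxyd6 (3.13 ± 0.19), Thy1 (2.71 ± 0.16), the factor Maf (2.43 ± 0.17), the scavenger receptor Stab2 (2.20 ± 0.17), the chemokine scavenger Ackr2 (1.79 ± 0.23), the factor Tbx1 (1.78 ± 0.14), the integrin subunit Itga9 (1.39 ± 0.16) and the receptor Nrp2 (1.04 ± 0.15).

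All 17 measured genes of the blood endothelial identity list were lower in LEC, by differences from -4.66 to -1.97, with a median of -3.44. Aplnr, the receptor of the peptide apelin, read 11.62, 11.78 and 11.89 in BEC and 6.80, 7.68 and 6.82 in LEC and differed by -4.66 ± 0.22 (SE, limma adjusted p = 4.7e-08). Aqp1, a water channel, read 12.56, 12.67 and 12.81 in BEC and 7.39, 8.51 and 8.21 in LEC and differed by -4.65 ± 0.24 (SE, limma adjusted p = 7.7e-08). Flt1, the VEGF receptor that acts mainly as a decoy, read 10.30, 10.38 and 10.55 in BEC and 6.37, 6.76 and 6.46 in LEC and differed by -3.88 ± 0.16 (SE, limma adjusted p = 1.7e-08). For all 3 genes the BEC arrays lay close together, and LEC replicate 2 was the highest of the LEC arrays. That array was the highest of LEC for 11 of the 17 genes of the list, and LEC replicate 1 the lowest for 13.

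The other large differences of the list were those of the junction proteins Jam2 (-4.23 ± 0.21) and Esam (-3.83 ± 0.19), the sialomucin Cd34 (-4.10 ± 0.23), the transcription factors Mecom (-4.03 ± 0.28) and Sox17 (-3.44 ± 0.16), and Vwf, the clotting factor of endothelial granules (-3.45 ± 0.17). Esm1, a marker of sprouting tip cells, was dim in LEC and differed by -3.10 ± 0.17. Cxcr4, a chemokine receptor of sprouting and arterial endothelium, had the smallest difference at -1.97 ± 0.20.

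Promoter windows of RefSeq (GRCm38.p6), 300 bases around a start site and mostly before it, matched 15614 of the 19938 genes, 707 of the 911 and 484 of the 654. The 4 windows below belong to genes whose results are described here: Prox1 among the genes higher in LEC, Flt1 and Sele among those lower in LEC, and Ms4a2, a mast cell receptor subunit that was higher in LEC. Capitals mark TATAAA in the first 3 and AGATAA, a core that GATA factors can bind, in the last, on either strand. Only windows that held the marked motif were shown, so its presence in them was fixed by the choice.
Prox1: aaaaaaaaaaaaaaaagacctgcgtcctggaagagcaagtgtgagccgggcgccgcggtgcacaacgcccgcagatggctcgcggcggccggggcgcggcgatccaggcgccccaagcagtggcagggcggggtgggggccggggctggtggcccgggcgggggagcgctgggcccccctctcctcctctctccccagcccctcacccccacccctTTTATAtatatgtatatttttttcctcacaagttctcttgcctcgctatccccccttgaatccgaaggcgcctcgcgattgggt
Flt1: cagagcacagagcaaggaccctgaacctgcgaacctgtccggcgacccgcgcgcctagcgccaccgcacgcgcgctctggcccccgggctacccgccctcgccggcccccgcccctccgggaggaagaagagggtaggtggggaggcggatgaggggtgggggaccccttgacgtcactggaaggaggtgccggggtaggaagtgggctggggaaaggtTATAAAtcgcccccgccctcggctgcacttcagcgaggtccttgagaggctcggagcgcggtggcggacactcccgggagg
Sele: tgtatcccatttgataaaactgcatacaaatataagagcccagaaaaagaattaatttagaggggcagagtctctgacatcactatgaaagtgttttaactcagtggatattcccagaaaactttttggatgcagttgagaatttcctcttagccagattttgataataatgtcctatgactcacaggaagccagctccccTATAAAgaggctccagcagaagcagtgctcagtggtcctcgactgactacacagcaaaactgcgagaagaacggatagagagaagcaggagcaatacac
Ms4a2: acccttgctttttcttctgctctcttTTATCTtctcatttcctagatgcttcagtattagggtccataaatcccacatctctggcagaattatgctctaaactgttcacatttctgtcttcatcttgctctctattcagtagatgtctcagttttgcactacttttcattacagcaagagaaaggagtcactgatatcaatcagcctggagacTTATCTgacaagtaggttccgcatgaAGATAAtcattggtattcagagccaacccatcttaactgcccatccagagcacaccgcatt
The windows are given 5′ to 3′ on the strand of the gene. Prox1 has 2 windows in that table, of which 1 is shown. Prox1 is at chr1:190170778-190171077 (minus strand), Flt1 at chr5:147725962-147726261 (minus strand), Sele at chr1:164047984-164048283 (plus strand) and Ms4a2 at chr19:11623670-11623969 (minus strand). The TATAAA match starts at -34 from the start site in Prox1 (on the opposite strand), -31 in Flt1 and -49 in Sele, and the Ms4a2 window holds 3 matches to AGATAA, at -224, -37 and -11.

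Over all windows of the genes tested, AGATAA was found in 9.25%, against 8.62% of the windows of the genes higher in LEC by at least 1 and 6.41% of those lower. TATAAA was found in 11.5%, 10.1% and 11.6%. The ETS motif CCGGAAGT was found in 5.41% of all windows and in 1.7% and 1.09% of those of the genes higher and lower. Both strands were searched for each motif. These shares are descriptions of letters in a short window and carry no test.

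The 14 largest differences higher in LEC ran from 5.14 to 5.89. Besides Reln and Lyve1 they held Mmrn1, a multimerin of endothelial cells and platelets (7.02, 6.19 and 6.61 in BEC and 12.28, 12.59 and 12.39 in LEC), and Sema3d, a secreted guidance cue (5.10, 4.03 and 4.45 in BEC and 10.13, 10.31 and 10.19 in LEC). Mrc1, the mannose receptor that both macrophages and lymphatic endothelium carry, read 5.87, 5.36 and 5.01 in BEC and 11.10, 11.53 and 10.97 in LEC and differed by 5.79 ± 0.22 (SE, limma adjusted p = 1.4e-08). The clotting factor subunit F13a1 (5.50 ± 0.26), which like Mrc1 stands in the macrophage list, was the highest on LEC replicate 2 and the lowest on LEC replicate 3, as the macrophage list is. The ferroxidase Cp (5.49 ± 0.18), the pentraxin Ptx3 (5.26 ± 0.26), the fibrinogen-like protein Fgl2 (5.21 ± 0.15), Tc2n (5.22 ± 0.22), the membrane protein Ms4a4a (5.32 ± 0.27), the lectin-like receptor Klrb1f (5.27 ± 0.21), the G-protein regulator Rgs1 (5.23 ± 0.35) and the proton-sensing receptor Gpr65 (5.14 ± 0.24) made up the rest. Ms4a4a, which macrophages are known to carry, had the same highest and lowest LEC arrays as F13a1 (10.14, 10.76 and 9.66). In LEC, Rgs1 read 10.52, 9.52 and 9.86 and Gpr65 9.69, 9.37 and 9.25. Replicate 1 was their highest LEC array, as for 10 of the 11 mast cell markers. The part of leukocytes in these differences was not tested. Sema3d, Cp, Klrb1f, Ptx3, Rgs1 and Gpr65 were dim in BEC. Klrb1f has near relatives on the array, and its value is uncertain for that reason.

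The 14 largest differences lower in LEC ran from -4.83 to -3.80. Tmem255a, a membrane protein, read 11.34, 11.30 and 11.57 in BEC and 5.65, 7.27 and 6.81 in LEC, with LEC replicate 1 far below the other LEC arrays, and differed by -4.83 ± 0.32 (SE, limma adjusted p = 3.9e-07). Lrat, which esterifies retinol, read 9.02, 9.95 and 9.70 in BEC and 4.63, 5.49 and 5.37 in LEC and differed by -4.39 ± 0.26 (SE, limma adjusted p = 2e-07). Asb4, a ubiquitin ligase adaptor of the vasculature (-4.62 ± 0.23), C1qtnf9 (-4.14 ± 0.16), the lysophosphatidic acid receptor Lpar4 (-3.95 ± 0.22) and the vascular collagen Col15a1 (-3.80 ± 0.15) stood beside the blood endothelial genes above. Every one of these 14 was above the dim bound in both groups.

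**Figure D2:**
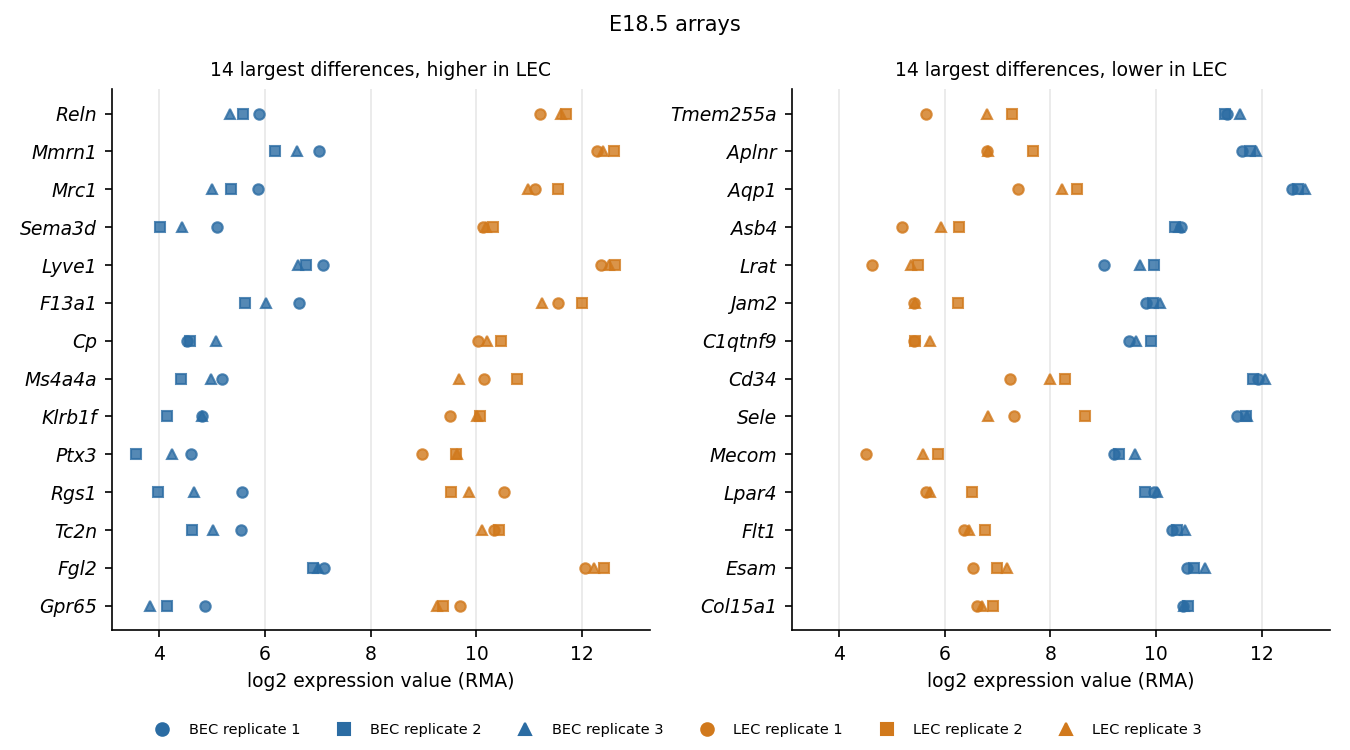
Log2 expression values (horizontal axis) of the 14 genes with the largest differences each way are plotted for each E18.5 array, BEC in blue and LEC in orange, with the marker shape giving the replicate. The groups are separated by a wide gap for every gene shown, LEC replicate 1 is the lowest LEC array for 13 of the 14 genes lower in LEC, and Tmem255a spans 5.65 to 7.27 in LEC.

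Genes that mark endothelium of both kinds differed less. Of the 20 measured pan-endothelial genes, 12 were lower in LEC and none was higher, with a median of -0.79. Pecam1, an adhesion molecule, read 11.89, 11.80 and 11.95 in BEC and 10.86, 11.13 and 10.94 in LEC and was lower at -0.90 ± 0.15 (SE, limma adjusted p = 0.00073). Cdh5, the endothelial cadherin, read 11.96, 12.00 and 11.98 in BEC and 10.89, 11.14 and 11.02 in LEC and was lower at -0.96 ± 0.14 (SE, limma adjusted p = 0.00036). The arrays of both groups carried these endothelial markers far above the dim bound. Kdr, the main VEGF receptor, read 12.00, 12.06 and 12.10 in BEC and 11.56, 11.85 and 11.79 in LEC. Its difference of -0.32 ± 0.15 (SE, limma adjusted p = 0.17) was not called although the arrays did not overlap, and it was past the test with all 18 arrays in the fit (limma adjusted p = 0.014). The receptor Tie1 (-0.04 ± 0.15) and the factors Sox18 (-0.17 ± 0.15) and Erg (-0.24 ± 0.15) were not called. The largest differences of the list were those of Clec14a (-3.34 ± 0.23), Robo4 (-2.90 ± 0.20), Eng (-1.59 ± 0.14) and the phosphatase Ptprb (-1.54 ± 0.15).

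Receptors and ligands of the endothelial growth factors were split. Of 26 measured genes, 11 were higher and 5 lower in LEC, with a median of 0.18, or 0.11 without BEC replicate 1. Among ligands, Vegfc itself was lower in LEC (8.01, 8.03 and 8.0 in BEC and 5.59, 5.92 and 5.75 in LEC), by -2.26 ± 0.15 (SE, limma adjusted p = 3.9e-07), and so was Pdgfb, which recruits mural cells (-2.42 ± 0.14). Hgf was higher by 2.63 ± 0.19 and dim in BEC, and its receptor Met was higher by 1.95 ± 0.16. The insulin-like growth factor Igf1 was higher (2.10 ± 0.15) and its receptor Igf1r lower (-1.24 ± 0.18). Angpt2, a ligand of the receptor Tek, was higher by 0.71 ± 0.16 and Tek lower at -0.64 ± 0.16, a call that did not hold without BEC replicate 3 or LEC replicate 1 (limma adjusted p = 0.053 to 0.062). Adrenomedullin (Adm), which acts on lymphatic growth, was higher by 1.20 ± 0.27 (SE, limma adjusted p = 0.0068). Its receptor subunit Ramp2 differed by -0.37 ± 0.17 and was not called, but was past the test with all 18 arrays in the fit (limma adjusted p = 0.034).

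Of the 19 arterial and Notch genes, 10 were lower and 3 higher in LEC, with a median of -0.90. Within the family the receptors pointed in different directions. Notch4 read 9.20, 9.31 and 9.33 in BEC and 6.03, 6.47 and 6.04 in LEC and was lower at -3.10 ± 0.16 (SE, limma adjusted p = 8.1e-08). Notch2 read 6.55, 6.29 and 6.23 in BEC and 8.90, 8.89 and 8.84 in LEC and was higher by 2.52 ± 0.15 (SE, limma adjusted p = 1.9e-07), and Notch1 (-0.12 ± 0.15) was not called. The ligands Dll4 (-1.37 ± 0.14), Jag1 (-1.45 ± 0.17) and Jag2 (-2.21 ± 0.18) and the Notch-modifying enzyme Mfng (-3.21 ± 0.18) were lower. The arterial gap junction gene Gja5 was lower at -2.87 ± 0.20, while Gja4 was higher by 1.06 ± 0.16 and Gja1 by 0.72 ± 0.14, both being connexins of lymphatic valves as well. Efnb2, the arterial ephrin, differed by -0.06 ± 0.14 and was not called.

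Of the 19 measured genes of the lymphatic valve and collecting vessel list, 12 were higher and 1 lower in LEC, with a median of 1.06. Foxc2, the forkhead factor of valves, read 5.47, 5.49 and 5.35 in BEC and 9.68, 8.93 and 8.95 in LEC and was higher by 3.75 ± 0.20 (SE, limma adjusted p = 9.1e-08), with LEC replicate 1 the highest. Sema3a, a guidance cue that shapes valves, read 4.68, 4.96 and 4.66 in BEC and 9.26, 9.48 and 9.61 in LEC, dim or nearly so in BEC, and was higher by 4.68 ± 0.16 (SE, limma adjusted p = 5.6e-09). The junction protein Cldn11 (2.37 ± 0.18), fibronectin Fn1 (1.91 ± 0.14), the factor Nfatc1 (1.38 ± 0.15) and the planar polarity receptor Celsr1 (1.13 ± 0.15) were higher. The protocadherin Fat4 was the member that was lower (-1.67 ± 0.16). Foxc1, a relative of Foxc2, was not called (0.15 ± 0.17).

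Guidance genes held large differences each way, 8 higher and 5 lower of 20, with a median of 0.07 that lay between 0.01 (without LEC replicate 3) and 0.12 (without LEC replicate 1) when 1 array was left out. Ntn1, the netrin ligand, read 4.84, 5.56 and 5.84 in BEC and 8.41, 7.92 and 8.66 in LEC and was higher by 2.92 ± 0.25 (SE, limma adjusted p = 3.9e-06), and Slit2 was higher by 2.35 ± 0.15. In contrast Sema3g (-2.43 ± 0.16), Robo4, the semaphorin receptors Nrp1 (-2.87 ± 0.19) and Plxnd1 (-1.78 ± 0.15) and the ephrin Efnb1 (-1.16 ± 0.17) were lower. Nrp1 and Nrp2 thus stood on opposite sides, as Sema3a and Sema3d did from Sema3g.

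Of the 19 genes of capillary uptake and caveolae, 15 were lower and 3 higher in LEC, with a median of -1.98. Cd36, a fatty acid translocase, read 12.44, 12.20 and 12.51 in BEC and 9.01, 9.91 and 9.31 in LEC and was lower at -2.97 ± 0.21 (SE, limma adjusted p = 7.9e-07). The fatty acid binding proteins Fabp4 (-2.61 ± 0.15) and Fabp5 (-1.98 ± 0.16), the lipase anchor Gpihbp1 (-2.65 ± 0.15), the capillary factor Meox2 (-2.51 ± 0.17), the aquaglyceroporin Aqp7 (-3.52 ± 0.21) and the glucose transporter Slc2a1 (-1.91 ± 0.18) were lower too. The amino acid transporter subunit Slc7a5 went the other way, reading 8.49, 7.68 and 7.64 in BEC and 11.32, 10.49 and 10.89 in LEC, with no overlap, and was higher by 2.97 ± 0.25 (SE, limma adjusted p = 3.3e-06). Lpl, the lipase itself, was higher by 0.91 ± 0.16, and the caveolar Cavin2 by 0.48 ± 0.15, while Cav1 (-0.70 ± 0.15) and Cavin1 (-1.30 ± 0.16) were lower. The call of Cavin2 did not hold without BEC replicate 1, 2 or 3 or LEC replicate 2 or 3 (limma adjusted p = 0.076 to 0.13), or with a common median (limma adjusted p = 0.054).

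Genes of specialised endothelium of brain, liver, heart and lung were 7 lower and 2 higher of 16, with a median of -0.38. The efflux pump Abcb1a (-3.66 ± 0.18), the lung capillary carbonic anhydrase Car4 (-2.24 ± 0.19) and the factor Tbx3 (-1.95 ± 0.21) were lower. Fcgr2b, an inhibitory Fc receptor of liver sinusoids and of leukocytes, was higher by 2.11 ± 0.19, dim in BEC, and has near relatives on the array, and the brain lipid transporter Mfsd2a was higher by 0.90 ± 0.20. Cldn5, a tight junction protein, was bright in both groups and differed by 0.24 ± 0.17 without being called.

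Of the 18 measured genes of leukocyte adhesion and chemokines, 11 were lower and 3 higher in LEC, with a median of -0.99. Sele, E-selectin, read 11.53, 11.69 and 11.72 in BEC and 7.32, 8.65 and 6.82 in LEC, with LEC replicate 2 well above the others, and was lower at -4.05 ± 0.35 (SE, limma adjusted p = 3.3e-06). Cxcl12 (-2.57 ± 0.20), Cx3cl1 (-2.02 ± 0.19), Madcam1 (-2.27 ± 0.15), Icam1 (-1.48 ± 0.18) and Vcam1 (-0.79 ± 0.18) were lower. The 3 that were higher were the scavenging receptor Ackr2 and the monocyte chemokines Ccl2 (1.54 ± 0.17) and Ccl7 (1.83 ± 0.17). No gene of the interferon response and class I presentation list was higher in LEC and 11 of 16 were lower, with a median of -1.28. Mx2, an antiviral GTPase, read 7.24, 7.34 and 8.05 in BEC and 4.63, 5.29 and 5.28 in LEC and was lower at -2.48 ± 0.24 (SE, limma adjusted p = 8.7e-06). Gbp3 (-2.13 ± 0.27), Irf1 (-1.93 ± 0.15) and Oasl2 (-1.64 ± 0.28) followed, and B2m differed by -0.09 ± 0.15 and was not called. Replicate 1 was the lowest of the BEC arrays for 15 of the 16 genes and the lowest of the LEC arrays for 14, and the list averaged 7.51, 7.92 and 8.19 in BEC and 6.42, 7.0 and 6.93 in LEC. Without BEC replicate 2, or without BEC replicate 3, 8 of the 16 were called lower. Ifit1, which binds viral RNA and has near relatives on the array, read 6.44, 7.43 and 8.05 in BEC and 5.41, 6.29 and 6.39 in LEC and was lower at -1.28 ± 0.36 (SE, limma adjusted p = 0.024), the lowest BEC array lying just above the highest LEC array. The call of Ifit1 did not hold without BEC replicate 2 or 3 or LEC replicate 1 (limma adjusted p = 0.079 to 0.1) or with trend and robust moderation (limma adjusted p = 0.11).

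In the coagulation list 5 genes were higher and 3 lower of 13, with a median of 0.18, which was 0.12 without BEC replicate 2 and 0.27 without LEC replicate 3. Mmrn1, Thbs1 (2.51 ± 0.18), the urokinase gene Plau (1.77 ± 0.17), the thrombin receptor F2r (0.57 ± 0.14) and F8, the gene of the clotting factor that is lacking in haemophilia A (1.05 ± 0.20), were higher, and Vwf, the thrombin-binding thrombomodulin Thbd (-1.31 ± 0.18) and Mmrn2 (-1.01 ± 0.14) lower. Of 14 basement membrane genes, 9 were lower and none higher, with a median of -1.11. The collagen chains Col4a1 (-2.07 ± 0.15) and Col4a2 (-2.12 ± 0.15), perlecan (Hspg2, -2.04 ± 0.16) and Sparc (-2.27 ± 0.14) were lower, whereas the laminin chain Lama4 (0.15 ± 0.16) was not called. Mural cells make some of these proteins too, and their markers were higher on the same BEC arrays. In order of age the median difference was -0.97, -1.24 and -1.11 for the basement membrane list. It was -0.27, -0.73 and -1.50 for the mural cell list, and the part of those cells was not tested.

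Of 23 cell cycle genes, 6 were lower and none higher, with a median of -0.31, and no difference reached 1 in size. The called genes were Rrm2 (-0.92 ± 0.14), Cdk1 (-0.90 ± 0.15), Tyms (-0.73 ± 0.17), Plk1 (-0.60 ± 0.14), Bub1b (-0.56 ± 0.17) and Aurkb (-0.55 ± 0.15), while Mki67 (-0.23 ± 0.14) and Top2a (-0.31 ± 0.14) were not called. The call of Bub1b did not hold without BEC replicate 2 or 3 or LEC replicate 1 or 3 (limma adjusted p = 0.065 to 0.13), nor that of Aurkb without BEC replicate 2 or 3 or LEC replicate 1 (limma adjusted p = 0.075 to 0.09). With all 18 arrays in the fit, 14 were lower and 1 higher, Mki67 and Top2a among the lower, and with trend and robust moderation 10 and 1. With the mean of its clusters, Top2a stood at 0.06. Of 17 immediate early genes, which respond to cell dissociation among other signals, 3 were higher and 1 lower, with a median of -0.01. Over all genes 9.7% were higher and 8.9% lower. Those called in the list were Egr2 (1.13 ± 0.18), Klf6 (0.76 ± 0.15), Egr3 (0.66 ± 0.20) and Btg2 (-0.84 ± 0.14). The call of Egr3 did not hold without BEC replicate 2 or 3 or LEC replicate 1 or 3 (limma adjusted p = 0.056 to 0.15), or after quantile normalization (limma adjusted p = 0.073). Of 17 haematopoietic regulators, 9 were higher and 1 lower, with a median of 0.62. The leukocyte factors Myb (2.53 ± 0.20), Ikzf1 (2.26 ± 0.16), Spi1 (1.92 ± 0.27) and Runx1 (1.54 ± 0.16), the mast cell and stem cell receptor Kit (1.43 ± 0.17) and Gata1 (1.17 ± 0.16) were higher, and Zfpm1, a partner of GATA factors, was lower (-1.18 ± 0.18). Leukocyte markers, described next, were higher on the same LEC arrays, and the part of those cells was not tested. Within LEC the regulators averaged 7.44, 7.15 and 7.22 and the macrophage markers 8.06, 8.13 and 7.56. LEC replicate 1 was the highest LEC array for 13 of the 17 regulators. It was the highest for 10 of the 11 mast cell markers, 9 of the 10 pan-leukocyte genes and 8 of the 20 macrophage markers.

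**Figure D3:**
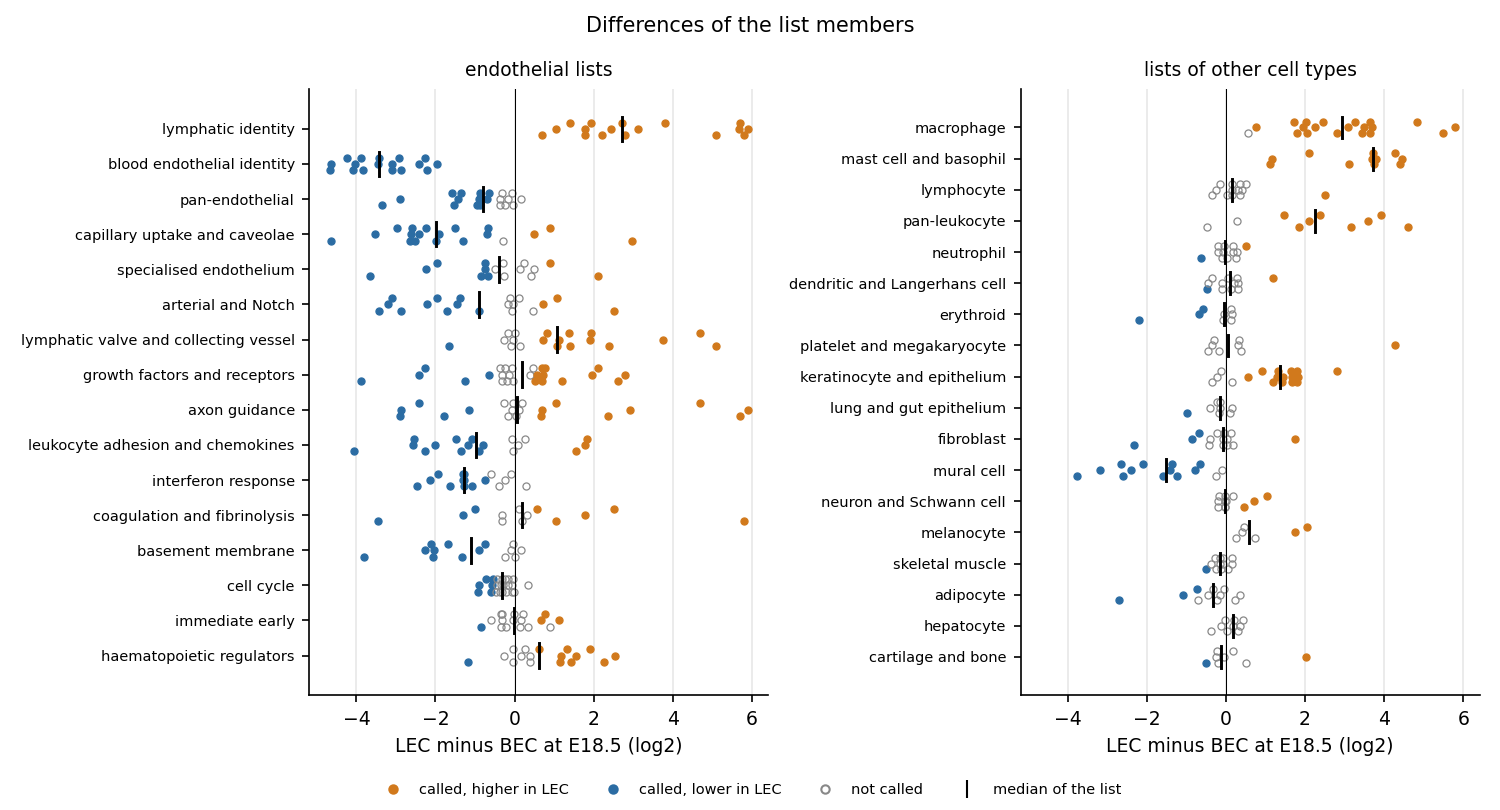
Each point is 1 measured gene of a list, placed by its difference LEC minus BEC at E18.5 (log2, horizontal axis), filled where called and open where not, and the black bar is the median of the list. Lymphatic identity (median 2.71) and blood endothelial identity (median -3.44) stand on opposite sides, and among other cell types the macrophage (2.94), mast cell (3.71) and keratinocyte (1.37) lists lie on the LEC side and the mural cell list (-1.50) on the BEC side.

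The LEC isolates carried a macrophage signal. Of 20 measured macrophage markers, 19 were higher in LEC and none was lower, with a median of 2.94. Adgre1, a classical surface antigen of mouse macrophages, read 4.52, 4.26 and 3.88 in BEC and 8.04, 8.53 and 7.14 in LEC and was higher by 3.68 ± 0.29 (SE, limma adjusted p = 1.9e-06). Csf1r, the receptor that macrophages depend on, read 5.72, 5.36 and 5.20 in BEC and 9.27, 9.34 and 8.57 in LEC and was higher by 3.63 ± 0.22 (SE, limma adjusted p = 2e-07). Both had their lowest LEC value on replicate 3, as 19 of the 20 markers did, and Adgre1 was dim in BEC. The scavenger receptor Cd163 (4.82 ± 0.27), the complement chains C1qa (2.44 ± 0.19), C1qb (3.26 ± 0.22) and C1qc (3.44 ± 0.20) and the lysozyme Lyz2 (2.80 ± 0.21) were higher, and Cd14 (0.56 ± 0.29) was the 1 marker that was not called, though it was past the test without LEC replicate 3 (limma adjusted p = 0.008). In BEC 9 of the 20 were dim.

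Mast cell markers were the list with the largest median of all 34, 3.71, and all 11 were higher in LEC. Cpa3, the mast cell carboxypeptidase, read 10.83, 7.78 and 9.12 in BEC and 13.09, 12.96 and 12.74 in LEC. The BEC arrays were far apart, with replicate 1 the highest, but did not reach the LEC arrays, and the difference was 3.69 ± 0.53 (SE, limma adjusted p = 0.00028). With trend and robust moderation its limma adjusted p was 0.052. Ms4a2, a chain of the high-affinity IgE receptor, read 3.92, 2.84 and 3.91 in BEC and 7.96, 8.10 and 7.82 in LEC, dim on every BEC array, and was higher by 4.40 ± 0.25 (SE, limma adjusted p = 1.5e-07). The proteases Mcpt4 (4.45 ± 0.46), Cma1 (3.71 ± 0.36) and Tpsb2 (3.78 ± 0.37) and the enzymes Hdc, which makes histamine (3.75 ± 0.39), and Hpgds (4.27 ± 0.29) were higher, protease values being uncertain because the families are near-identical. Without BEC replicate 1 the median of the list was 4.33. That array was the highest of BEC for 10 of the 11 mast cell markers and for 8 of the 10 pan-leukocyte genes.

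Pan-leukocyte genes were higher in LEC for 8 of 10, with a median of 2.24, Ptprc (CD45) reading 5.17, 4.69 and 4.40 in BEC and 8.63, 8.60 and 7.81 in LEC with a difference of 3.60 ± 0.25 (SE, limma adjusted p = 5.3e-07). Cd53 (4.61 ± 0.33) and Laptm5 (3.91 ± 0.22) followed, and Lcp1 (-0.48 ± 0.19) and Cd52 (0.28 ± 0.19) were not called, Lcp1 being past the test, lower in LEC, without LEC replicate 2 (limma adjusted p = 0.033) and with all 18 arrays in the fit (limma adjusted p = 0.019). Markers of other leukocytes were near the dim bound. Over all genes 9.7% were called higher in LEC and 8.9% lower, and the lymphocyte, neutrophil and dendritic counts lay near those shares. Of 13 lymphocyte markers 9 were dim in both groups and Il7r alone was called, higher by 2.50 ± 0.24. Of 12 neutrophil markers 8 were dim in both groups, Ltf was higher (0.52 ± 0.17) and Camp lower (-0.63 ± 0.17), and of 12 dendritic and Langerhans cell markers 6 were dim in both, Cd74 being higher by 1.19 ± 0.21 and Ccr7 lower at -0.49 ± 0.14. The call of Ltf did not hold without BEC replicate 1, 2 or 3 or LEC replicate 1 or 3 (limma adjusted p = 0.098 to 0.17), that of Camp without BEC replicate 1 or 3 or LEC replicate 3 (limma adjusted p = 0.067 to 0.079) and that of Ccr7 without BEC replicate 1, 2 or 3 or LEC replicate 1 or 2 (limma adjusted p = 0.06 to 0.098). With trend and robust moderation neither Ltf (limma adjusted p = 0.073) nor Ccr7 (limma adjusted p = 0.055) passed, and Ltf also fell short with a common median (limma adjusted p = 0.052). Pf4, a platelet chemokine gene that is also transcribed in some macrophages, was higher by 4.27 ± 0.22 (SE, limma adjusted p = 7.6e-08), while the other 7 platelet and megakaryocyte markers were not called.

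Keratinocyte and epithelial markers were higher in LEC for 14 of 18 and lower for none, with a median of 1.37. Krt5, a keratin of basal keratinocytes, read 8.33, 7.62 and 8.54 in BEC and 9.58, 9.85 and 10.44 in LEC and was higher by 1.79 ± 0.26 (SE, limma adjusted p = 0.00027). Krt14 read 6.54, 5.92 and 6.70 in BEC and 7.70, 7.84 and 8.65 in LEC and was higher by 1.68 ± 0.26, the desmosomal cadherin Dsc3 by 2.81 ± 0.34 and Epcam by 1.83 ± 0.18. LEC replicate 3 was the highest array for both keratins and for 11 of the 18 markers, and BEC replicate 2 the lowest of BEC for 16. Krt5 was far above the dim bound in BEC too, so that both isolates carried it. Markers of simple epithelium such as Krt8 (-0.35 ± 0.20) and Krt18 (-0.13 ± 0.15) and the cornified envelope gene Lor (-0.23 ± 0.21) were not called. Of the melanocyte markers, Mitf, which mast cells also use, was higher by 2.04 ± 0.19 and Dct by 1.75 ± 0.26, and the other 4 of 6 were not called.

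The BEC isolates carried a mural cell signal. Of 14 markers of pericytes and smooth muscle, 12 were lower in LEC and none was higher, with a median of -1.50. Rgs5, a pericyte marker, read 9.15, 8.87 and 9.14 in BEC and 4.97, 5.91 and 4.97 in LEC and was lower at -3.77 ± 0.23 (SE, limma adjusted p = 2.6e-07). Acta2, smooth muscle actin, read 10.25, 10.61 and 11.00 in BEC and 6.85, 8.07 and 7.43 in LEC and was lower at -3.17 ± 0.28 (SE, limma adjusted p = 3.9e-06). Pdgfrb, the receptor that mural cells use to follow endothelial Pdgfb, read 8.89, 8.74 and 8.91 in BEC and 6.46, 6.29 and 6.01 in LEC and was lower at -2.59 ± 0.16 (SE, limma adjusted p = 2.4e-07). Their BEC values lay close together for Rgs5 and Pdgfrb and well above LEC for all 3 genes. Notch3 (-2.10 ± 0.15), Myh11 (-2.40 ± 0.24) and the channel subunits Abcc9 (-2.66 ± 0.25) and Kcnj8 (-1.60 ± 0.17) were lower too. The pericyte gene Higd1b and Cnn1 were dim in both groups. Of the 14 markers, 12 were above the dim bound in BEC and 11 in LEC, so that LEC carried most of them at a lower level.

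Fibroblast genes were mixed, 3 lower and 1 higher of 14, against 8.9% lower and 9.7% higher over all genes. Col1a1 (-0.07 ± 0.22) was not called, while Dcn was higher by 1.75 ± 0.26 and Prrx1 (-2.31 ± 0.21), Col1a2 (-0.87 ± 0.19) and Dpt (-0.69 ± 0.19), the last dim in both groups, lower. The call of Dpt did not hold without BEC replicate 1 or 3 or LEC replicate 1 or 3 (limma adjusted p = 0.062 to 0.096). Of 11 adipocyte markers Car3 (-2.69 ± 0.25), Pparg (-1.08 ± 0.18), also a factor of capillary endothelium, and Adipoq (-0.72 ± 0.16), dim in both groups, were lower.

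Of 8 measured erythroid markers 3 were lower, Alas2 (-2.20 ± 0.20), Slc4a1 (-0.68 ± 0.15) and the embryonic globin gene Hba-x (-0.57 ± 0.16), whose call did not hold without BEC replicate 2 or 3 or LEC replicate 1 or 2 (limma adjusted p = 0.057 to 0.087). Comp was the 1 cartilage gene higher in LEC (2.03 ± 0.15) and Col2a1 the 1 lower (-0.51 ± 0.16), which did not hold without BEC replicate 1, 2 or 3 or LEC replicate 2 or 3 (limma adjusted p = 0.088 to 0.17). Stmn2 (1.04 ± 0.22), Gap43 (0.71 ± 0.15) and Ncam1 (0.46 ± 0.14) were the 3 nerve genes higher in LEC, and the call of Ncam1 did not hold without BEC replicate 1, 2 or 3 or LEC replicate 1, 2 or 3 (limma adjusted p = 0.068 to 0.12). No hepatocyte marker was called by limma, none of 9 had an unadjusted p under 0.05, and 7 were dim in both groups. Skeletal muscle (1 lower of 12) and lung and gut epithelium (1 lower of 8) gave 1 call each, Actc1 (-0.51 ± 0.15) and Vil1 (-0.99 ± 0.16). The call of Actc1 did not hold without BEC replicate 2 or 3 or LEC replicate 1, 2 or 3 (limma adjusted p = 0.062 to 0.14). With 9.7% higher and 8.9% lower over all genes, the cartilage, muscle and lung and gut counts lay near those shares.

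**Figure D4:**
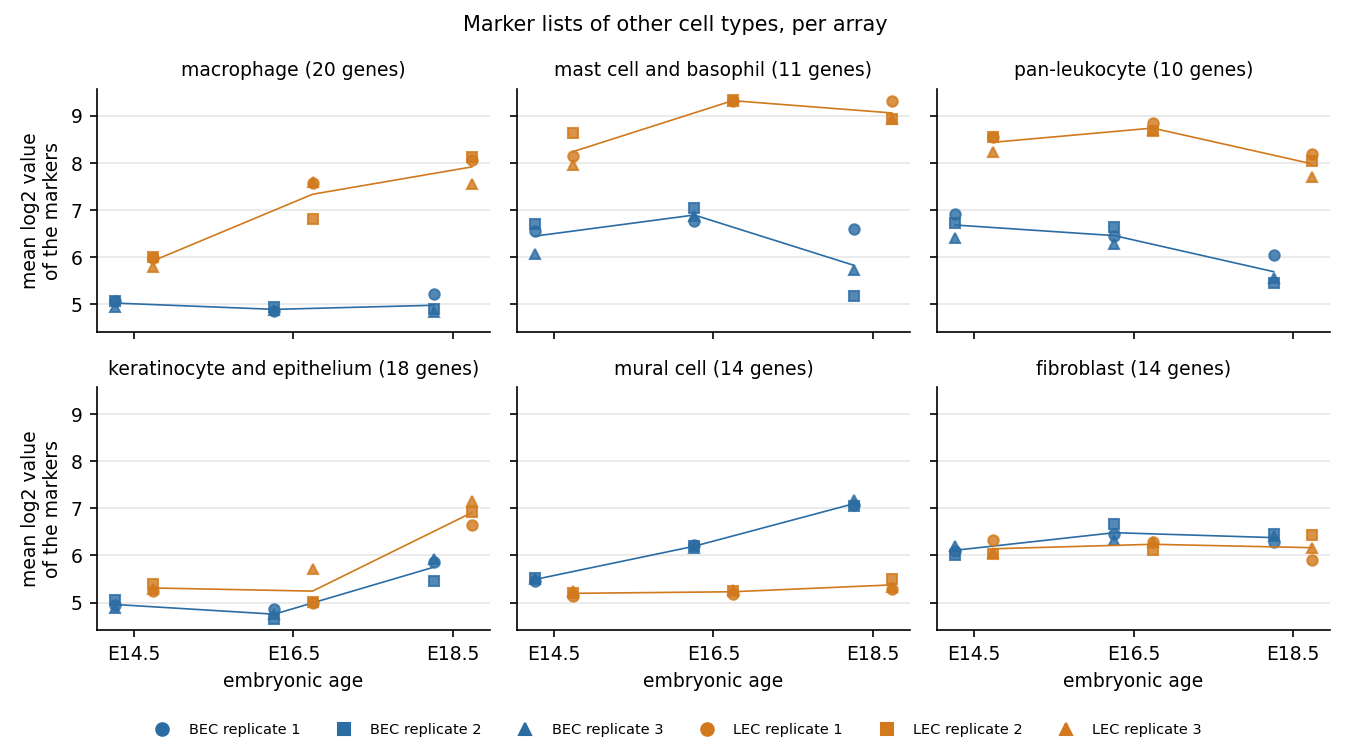
The mean log2 value of the markers of a list (vertical axis) is plotted for every array of the series at each embryonic age (horizontal axis), BEC in blue and LEC in orange, with the marker shape giving the replicate and lines joining group means. At E18.5 the LEC arrays lie above the BEC arrays for macrophage (7.56 to 8.13 against 4.84 to 5.21), mast cell, pan-leukocyte and keratinocyte markers, and below for mural cell markers (5.29 to 5.51 against 7.05 to 7.17).

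Most differences of at least 1 at E18.5 were already called earlier. When the arrays of each age were fitted alone, 2108 genes were higher in LEC at E14.5 (10.6%) and 2052 lower (10.3%), and 2615 were higher at E16.5 (13.1%) and 2501 lower (12.5%). Of the 911 genes higher at E18.5 by at least 1, 687 were called higher at both earlier ages, 154 at E16.5 alone, 14 at E14.5 alone and 56 at neither. Of the 654 lower genes, 539 were called lower at both, 71 at E16.5 alone, 8 at E14.5 alone and 36 at neither. An opposite call at an earlier age was found for 10 of the higher genes, Gja4, Adm, Cd68 and Thbs1 among them, and for 11 of the lower genes, among them Pdgfrb, Il6, S1pr3, Psmb8 and Tap1.

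Whether the difference at E18.5 departed from the mean difference of both earlier ages was tested in a fit to all 18 arrays. The comparison was positive for 847 genes (4.25%) and negative for 760 (3.81%), and the larger spread at E18.5 enters this fit as if it were shared by all ages. With array weights the numbers were 534 and 459, with a common median 725 and 889, so that the negative calls then outnumbered the positive ones, and against E16.5 alone 306 and 422. Of the 39 departures given here or in the closing section, 18 did not pass the test against E16.5 alone. Of the 847 genes, 607 were called higher in LEC at E18.5, and of the 760, 422 were called lower.

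Lymphatic genes stood among the positive values. Mmrn1 differed by 2.13 and 4.14 at the earlier ages and by 5.81 near term, an excess over the earlier mean of 2.68 ± 0.21, limma adjusted p = 4e-07. Pkhd1l1, a large fibrocystin-like membrane protein that was dim in BEC, differed by 0.09, 2.89 and 4.76, an excess of 3.27 ± 0.22, limma adjusted p = 6.7e-08. Of the 17 lymphatic identity genes 8 were called positive and none negative, among them Prox1 (1.34 ± 0.19, limma adjusted p = 0.00016), Flt4 (1.14 ± 0.14, limma adjusted p = 4.3e-05) and Lyve1 (0.95 ± 0.16, limma adjusted p = 0.00076). Against E16.5 alone 2 of the 17 were positive, Mmrn1 (1.67, limma adjusted p = 9.6e-04) and Flt4 (0.75, limma adjusted p = 0.013), and Thy1 was negative (-0.79, limma adjusted p = 0.022). In order of age the list had median differences of 1.73, 2.79 and 2.71. Prox1 differed by 4.99 at E16.5 and 5.09 at E18.5, and the comparison of these ages was not past the test (0.10, limma adjusted p = 0.86). From E14.5 through E16.5 to E18.5, Prox1 read 7.97, 6.03 and 6.04 on average in BEC and 10.49, 11.02 and 11.13 in LEC. Flt4 read 9.94, 9.16 and 8.32 in BEC and 11.20, 11.20 and 11.11 in LEC. The whole list averaged 7.96, 7.13 and 6.91 in BEC and 9.81, 10.06 and 10.07 in LEC.

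Genes of leukocytes were positive as well, 15 of 20 macrophage and 5 of 11 mast cell markers, but 1 and none against E16.5 alone, and 9 and 2 with array weights. In order of age the macrophage markers averaged 5.93, 7.34 and 7.92 in LEC and 5.03, 4.90 and 4.98 in BEC. The mast cell markers averaged 8.24, 9.32 and 9.06 in LEC and 6.45, 6.90 and 5.83 in BEC, falling after E16.5 in both. Pan-leukocyte genes fell from 8.74 at E16.5 to 7.98 at E18.5 in LEC and from 6.46 to 5.69 in BEC. With 1 array left out the mast cell count lay between 2 and 7, the highest without BEC replicate 1 and the lowest without BEC replicate 2 or 3 or LEC replicate 1 or 3. Cd163 differed by -0.13 and 3.27 at the earlier ages and by 4.82 near term (3.25 ± 0.35, limma adjusted p = 1.3e-05). The receptors Mrgprb1 (4.08 ± 0.47, limma adjusted p = 2.6e-05), Mrgprx2 (4.01 ± 0.41, limma adjusted p = 7.9e-06) and Mrgprb2 (3.82 ± 0.39, limma adjusted p = 7e-06), of a family known from mast cells and sensory neurons, had the largest values of all, and their probes may bind near-identical relatives. For these 3 genes BEC replicate 1 lay well above the other BEC arrays, Mrgprb2 reading 4.73, 3.26 and 3.57 in BEC and 9.32, 8.55 and 8.56 in LEC, as it did for the mast cell markers. Tac1, the substance P precursor (3.26 ± 0.48, limma adjusted p = 0.00024), had the same order of BEC arrays. Mrgprx2, Mrgprb2 and Tac1 were dim on every BEC array, so that the order of those arrays is uncertain for them. At E14.5 both groups lay under the dim bound of 4.77 for these genes and Mrgprb1, Mrgprx2 averaging 2.23 in LEC and 2.56 in BEC. Klrb1f (3.14 ± 0.25, limma adjusted p = 4e-07), Cp (2.71 ± 0.23, limma adjusted p = 8.1e-07) and Pf4 (2.87 ± 0.35, limma adjusted p = 3.8e-05) completed the 10 largest, and Pf4 was not past the test against E16.5 alone (1.22, limma adjusted p = 0.1). Of the keratinocyte markers 6 of 18 were positive, 3 against E16.5 alone, 3 without BEC replicate 2 or without LEC replicate 3, and 9 without LEC replicate 1.

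On the negative side stood Il6, an inflammatory cytokine, which read 9.05, 9.53 and 9.04 in BEC and 7.87, 7.65 and 6.35 in LEC at E18.5. Its earlier differences were 2.53 at E14.5 and 3.11 at E16.5, both called higher in LEC, and it was lower at E18.5, by -1.91 ± 0.32 (SE, limma adjusted p = 0.00091), a departure of -4.73 ± 0.43, limma adjusted p = 2.4e-06. In order of age Il6 averaged 5.01, 5.45 and 9.20 in BEC and 7.54, 8.56 and 7.29 in LEC, so that the larger change was a rise in BEC. Pdgfrb went from 1.14 and 0.08 to -2.59 (-3.20 ± 0.16, limma adjusted p = 2.7e-09), and 10 of the 14 mural cell markers were called negative, none positive, and 4 were negative against E16.5 alone. The sphingosine phosphate receptor S1pr3 (-2.19 ± 0.15, limma adjusted p = 1.3e-07) and the angiotensin receptor Agtr1a (-2.02 ± 0.28, limma adjusted p = 0.00013), which mural cells also carry, were negative too. From E14.5 through E16.5 to E18.5 the mean of the mural markers was 5.49, 6.20 and 7.10 in BEC and 5.20, 5.23 and 5.38 in LEC, and its part in these values was not tested.

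The interferon list had 6 of 16 negative and none positive, 10 being negative without BEC replicate 1, and 4 against E16.5 alone. Among the 10 most negative genes were the chemokine Cxcl10 (-2.09 ± 0.32, limma adjusted p = 0.00035), the GTPase Iigp1 (-2.13 ± 0.34, limma adjusted p = 0.00056) and the death ligand Tnfsf10 (-2.11 ± 0.32, limma adjusted p = 3e-04), known as interferon targets. Car3 (-2.97 ± 0.64, limma adjusted p = 0.0059), Neurl3 (-2.04 ± 0.15, limma adjusted p = 1.7e-07) and Mctp1 (-2.09 ± 0.23, limma adjusted p = 1.7e-05) were the others. Mctp1, a calcium-binding membrane protein, was higher in LEC at both earlier ages (1.47 and 1.92) and not called at E18.5 (-0.40 ± 0.21). Of the 17 blood endothelial identity genes 3 were positive, a smaller deficit in LEC than before, and 2 negative, against 1 and none when E16.5 alone was the earlier age. Nrp1, at -4.46 and -3.91 before, was the largest of the former (1.32 ± 0.26, limma adjusted p = 0.0034), and Sox17, at -1.32 and -2.59 before, the largest of the latter (-1.48 ± 0.20, limma adjusted p = 0.00012), and neither passed against E16.5 alone (limma adjusted p = 0.065 and 0.051).

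**Figure D5:**
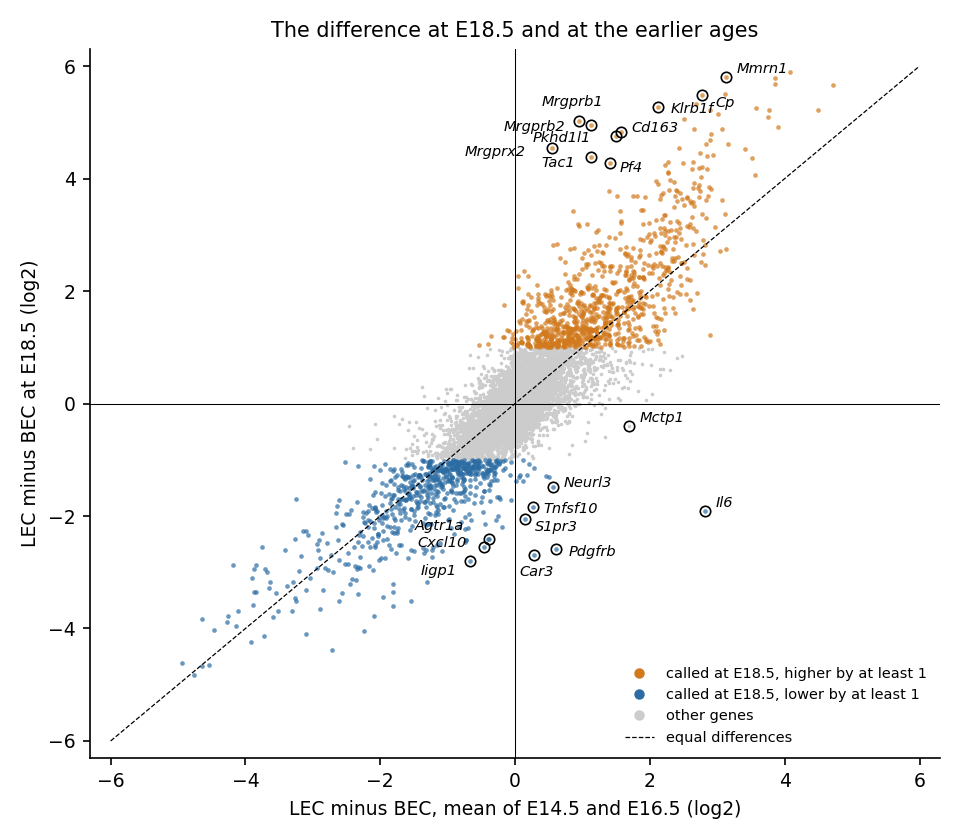
The difference LEC minus BEC at E18.5 (vertical axis) is plotted against the mean difference of E14.5 and E16.5 (horizontal axis), both log2, for all genes, with genes called at E18.5 and differing by at least 1 in colour and equal differences on the dashed line. Circled are the 10 largest departures each way, with Mrgprb1 (4.08) farthest above the line and Il6 (-4.73) farthest below it.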

How the data were processed

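Total RNA of LEC and BEC was measured on the Mouse Gene 1.0 ST platform of Affymetrix, 3 arrays in each of 6 groups. The deposited values are log2 expression values, made by the authors with RMA (oligo 1.54.1), which corrects background, normalizes arrays and summarises probes, per the submitters' processing notes. Whether all 18 arrays were normalized together is not given in the sources used here. Arrays give no read depth, and their number limits the precision.

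Of 35556 transcript clusters, 21789 carried exactly 1 gene symbol in the platform annotation. Where a gene had several clusters (999 genes), the brightest over the 18 arrays stood for it, giving 19938 genes, and dim genes were kept. The 6 arrays of E18.5 were fitted with limma 3.58.1 in R 4.3.3 (lmFit and eBayes, 4 residual and 7.85 prior degrees of freedom), with groups taken from the labels. P values are two-sided, with Benjamini-Hochberg adjustment across all 19938 genes. The comparison of ages used all 18 arrays (12 residual and 6.11 prior degrees of freedom). The test was checked on simulated data with changes of known size. The simulated noise was independent between genes and of equal spread in all groups. Shifts shared by many genes and unequal spread were therefore not covered by that check.

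The 34 gene lists name 491 genes, 464 of them measured and 35 in more than 1 list. The members and lists were chosen with earlier results of these data known. Named genes are the 14 largest called differences each way whose arrays did not overlap, up to 4 members of each list with the largest differences and those that define a cell type, the 10 largest called departures each way from the earlier ages, and 8 set genes (Prox1, Gata2, Flt4, Lyve1, Pdpn, Pecam1, Cdh5 and Kdr), passing over predicted, RIKEN, chemosensory receptor, histone and small RNA genes. Other list members in the text were chosen after their values were seen. Alternatives were other fits, normalizations and filters and each array left out in turn. Probes of near-identical families (Mrgpr, Mcpt, Tps, Fcgr, Klrb1, Ifit) may bind relatives.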

Additional observations from a re-analysis of the deposited data

Results flagged for a closer look

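The difference between LEC and BEC at E18.5 was tested against the mean difference at E14.5 and E16.5, and 847 genes stood above it and 760 below it. The values that follow are these departures on the log2 scale for the genes named by rule, all past the test (limma, adjusted p under 0.05). Of these 37 genes, 16 did not pass against E16.5 alone: Prox1, Lyve1, Pdpn, Reln, Sema3d, Pf4, Ms4a4a, F13a1, Mrc1, Rgs1, Ptx3, Tc2n, Fgl2, Sele, Lrat and Cd34.

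Among genes of the lymphatic identity list the departure was 2.68 for Mmrn1, 1.83 for Sema3d, 1.81 for Reln, 1.34 for Prox1, 1.14 for Flt4, 0.95 for Lyve1 and 0.90 for Pdpn. The earlier mean includes E14.5. The difference at E16.5 and at E18.5 was 4.99 and 5.09 for Prox1, 3.57 and 3.81 for Pdpn, 5.11 and 5.67 for Lyve1, and 5.15 and 5.89 for Reln. For genes that macrophages are known to carry the departure was 3.25 for Cd163, 2.87 for Pf4, 2.63 for Ms4a4a, 2.39 for F13a1 and 1.93 for Mrc1. The G-protein-coupled receptors Mrgprb1 (4.08), Mrgprx2 (4.01), Mrgprb2 (3.82) and Gpr65 (2.13), the neuropeptide gene Tac1 (3.26), the lectin-like receptor Klrb1f (3.14) and Rgs1 (2.34) were above the earlier difference as well. So were Pkhd1l1 (3.27), Cp (2.71), Ptx3 (1.69), Tc2n (1.46) and Fgl2 (0.71).

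Below the earlier difference stood Il6 (-4.73), Pdgfrb (-3.20), Car3 (-2.97), S1pr3 (-2.19), Iigp1 (-2.13), Tnfsf10 (-2.11), Cxcl10 (-2.09), Mctp1 (-2.09), Neurl3 (-2.04) and Agtr1a (-2.02). Of the genes with the largest E18.5 differences, Sele (-1.81), Lrat (-1.67) and Cd34 (-0.99) were further below zero than before. Car3 rested on earlier groups with a wide spread, its 3 LEC arrays at E16.5 having an SD of 1.44. Macrophage, mast cell and mural cell markers moved with age in the same comparison, and their part in these values was not tested.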

How the results depend on the processing

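The count of called genes, 3707 as reported, was 6071 with all 18 arrays in the fit (2908 higher and 3163 lower in LEC). It lay between 3705 and 4267 with a common median, quantile normalization, array weights, dim genes left out, the mean of a gene's clusters, and trend and robust moderation. Without 1 array each it was 2928 to 3367, with 1619 to 1840 higher and 1309 to 1624 lower, 885 to 943 higher and 634 to 713 lower by at least 1. Of the calls, 52.1% were higher in LEC as reported, 46.6% after quantile normalization and 47.9% with all 18 arrays. The design text speaks of matching litters, but no label says that a replicate number marks a litter. Over all genes, deviations of the same-numbered LEC and BEC arrays at E18.5 correlated at 0.0715, -0.1071 and -0.0176. In single lists such arrays could stand alike, replicate 1 being lowest for 15 of 16 interferon genes in BEC and 14 in LEC. They could also differ, the 19 valve genes being highest most often on LEC replicate 3 (12) and BEC replicate 2 (14). A tie to litters was not tested. With the replicate number as a block, 3484 genes were called on the 6 arrays (3395 shared with the 3707), and 5794 on all 18, of which 3005 were lower. On the 6 arrays this block ended the calls of Cavin2, Ccr7, Col2a1, Ltf and Ncam1 among the genes named.

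The departures from the earlier ages, 847 positive and 760 negative, numbered 306 and 422 against E16.5 alone, 534 and 459 with array weights, and 725 and 889 with a common median, where more were negative than positive. Without 1 E18.5 array they were 693 to 1068 and 541 to 863. Of 3429 values of named genes under 15 alternatives, 3342 kept direction and side of the threshold, 70 no longer passed, 14 newly passed and 3 changed sign, none of them called. Those were Col1a1 (0.141 without LEC replicate 1, from -0.339 over the arrays left out), Tie1 (0.028 without LEC replicate 1, from -0.129) and Top2a (0.061 with the mean of its clusters). Of 39 departures under 11 alternatives, 18 no longer passed against E16.5 alone. Fgl2 among them also did not pass with array weights, with the block, or without BEC replicate 2 or LEC replicate 2. Every other departure passed under the remaining 10. Of 374 values of list medians, 314 moved by less than the spread between replicates and 60 by more, such as that of the growth factors, 0.18 as reported and 0.40 with dim genes left out. The cause of these changes was not tested. With 3 arrays a group, differences of dim genes are the least certain.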
